A study of Mus musculus with 12 samples.

Results

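The genes described here belong to the unfolded protein response and the integrated stress response, and they were read in whole kidneys of mice with and without Toll-like receptor 4 (TLR4), an innate immune receptor, after ischemia or sham surgery. They are the 10 genes Atf4, Ddit3, Chac1, Asns, Trib3, Atf5, Ppp1r15a, Hspa5, Xbp1 and Herpud1, of 18195 genes that the platform annotation gives as the only gene of a probe set. The 10 genes were chosen by name, with earlier results of these data known. They have 21 probe sets, and 20 of these passed the filter on low signals. The exception was an Atf4 probe set (1439258_at) with signals between 1.89 and 16.8. Each gene was represented by its probe set with the highest mean, and all 10 genes were among the 14316 tested.

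The TLR4 null mice were of the substrain C57BL/10ScNJ and the wild-type mice of the strain C57BL/10, so the lack of TLR4 and other differences between these strains cannot be told apart. All were males bought at 8 weeks, anesthetized with isoflurane, whose right kidney was removed. In ischemic mice the vessels of the remaining kidney were clipped for 23 min and the kidney was taken at 4 h of reperfusion, and in sham mice the clip lay under the vessels without closing them. The 4 groups, TLR4 null ischemic, TLR4 null sham, wild-type ischemic and wild-type sham, had 3 arrays each, called biological replicates in the labels. Numbers 1 to 3 below name arrays within a group.

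The endoplasmic reticulum (ER) folds secreted and membrane proteins, and unfolded proteins in its lumen activate the sensors PERK, IRE1 and ATF6. PERK, like the kinases GCN2, PKR and HRI that answer to lack of amino acids, viral RNA and lack of heme, phosphorylates the initiation factor eIF2, which lowers general translation and favors that of ATF4, a transcription factor of amino acid and stress genes that also drives CHOP (gene symbol Ddit3). IRE1 splices the Xbp1 transcript and ATF6 is cleaved, and both raise ER chaperones such as BiP (gene symbol Hspa5) and genes of ER-associated degradation. For the description the genes fall into an ATF4 and CHOP arm (Atf4, Ddit3, Chac1, Asns, Trib3, Atf5, Ppp1r15a) and an ER chaperone and XBP1 arm (Hspa5, Xbp1, Herpud1). Translation, eIF2 phosphorylation and Xbp1 splicing were not measured.

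Sequences around the starts of 5 genes are shown because they hold the DNA elements known for these arms. They are RefSeq windows on the build GRCm38.p6, from 250 bases before to 50 after the start, written on the gene's own strand. The element that ATF4 binds with C/EBP family partners was searched as TGATGNAA, the ER stress element as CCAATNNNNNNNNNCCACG and the shorter ER stress element II as ATTGGNCCACG, each on both strands. Capitals mark the matches, and the windows are chr2:119350992-119351291 (plus strand) for Chac1, chr6:7693160-7693459 (minus) for Asns, chr2:152344011-152344310 (minus) for Trib3, chr2:34771840-34772139 (plus) for Hspa5 and chr8:94386179-94386478 (plus) for Herpud1.
Chac1: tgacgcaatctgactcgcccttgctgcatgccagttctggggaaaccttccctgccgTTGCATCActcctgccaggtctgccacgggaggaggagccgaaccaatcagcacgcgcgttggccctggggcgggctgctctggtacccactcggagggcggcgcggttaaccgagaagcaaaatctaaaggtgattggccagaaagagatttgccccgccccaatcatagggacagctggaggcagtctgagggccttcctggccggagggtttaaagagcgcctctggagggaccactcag
Asns: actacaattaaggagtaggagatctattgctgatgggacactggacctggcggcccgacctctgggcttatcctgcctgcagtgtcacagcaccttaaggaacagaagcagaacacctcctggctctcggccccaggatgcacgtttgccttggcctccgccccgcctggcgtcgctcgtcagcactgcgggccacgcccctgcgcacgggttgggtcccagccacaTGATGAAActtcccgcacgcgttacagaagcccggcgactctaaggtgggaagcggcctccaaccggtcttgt
Trib3: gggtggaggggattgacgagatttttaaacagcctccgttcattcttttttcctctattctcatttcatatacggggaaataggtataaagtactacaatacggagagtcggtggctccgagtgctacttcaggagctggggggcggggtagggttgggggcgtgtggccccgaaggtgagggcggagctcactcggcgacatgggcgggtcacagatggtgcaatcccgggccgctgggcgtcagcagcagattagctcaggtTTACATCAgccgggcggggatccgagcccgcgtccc
Hspa5: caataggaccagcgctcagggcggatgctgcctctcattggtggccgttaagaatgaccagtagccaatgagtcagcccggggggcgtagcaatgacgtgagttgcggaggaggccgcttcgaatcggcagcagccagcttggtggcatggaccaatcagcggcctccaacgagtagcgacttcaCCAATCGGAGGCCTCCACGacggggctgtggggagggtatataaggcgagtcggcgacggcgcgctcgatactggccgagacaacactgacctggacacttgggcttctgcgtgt
Herpud1: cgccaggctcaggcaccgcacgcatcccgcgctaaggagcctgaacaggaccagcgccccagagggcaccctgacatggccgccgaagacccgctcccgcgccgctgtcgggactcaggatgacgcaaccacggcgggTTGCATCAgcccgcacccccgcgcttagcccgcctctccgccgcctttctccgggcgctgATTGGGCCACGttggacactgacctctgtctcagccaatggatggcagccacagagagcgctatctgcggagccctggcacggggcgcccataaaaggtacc
The Chac1 window holds the composite element on the opposite strand at -193 to -186, counted from the start, the Asns window on the gene's strand at -23 to -16, the Trib3 window on the opposite strand at 15 to 22, inside the transcript, and the Herpud1 window on the opposite strand at -112 to -105. Hspa5 holds the ER stress element at -65 to -47 and Herpud1 the ER stress element II at -52 to -42, without overlap with its composite element. Of 32851 RefSeq windows of this length, 3.97% hold the composite element, 0.119% the ER stress element and 0.0365% the ER stress element II. These letters are not in the windows of Atf4, Ddit3, Atf5 (which has 2 windows), Ppp1r15a and Xbp1. A match describes the letters in the window and says nothing of binding in these kidneys.

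Array facts that touch the results were as follows. Every array had a trimmed mean signal of 250.002, median signals lay between 61.35 and 77.58, and log2 values correlated at 0.963 to 0.979 between arrays of a group. Tlr4 was read at 0.901 to 3.38 in TLR4 null and at 65.6 to 120.4 in wild-type kidneys by the probe set 1418162_at. The probe set 1418163_at gave 6.33 to 60.4 in TLR4 null and 72.9 to 134.8 in wild-type kidneys, and its genotype difference was not called in sham (adjusted p = 0.556) or ischemic kidneys (adjusted p = 0.333). The probe set 1418162_at is the one with the larger genotype difference, and whether it lies in the deleted part was not determined. On the dim Tlr4 probe set 1430695_at the genotypes overlapped, with 1.16 to 18.6 in TLR4 null and 0.88 to 14.6 in wild-type kidneys. They also overlapped on 1442827_at, with 6.79 to 32.2 in TLR4 null and 9.63 to 41.4 in wild-type kidneys. The summed signal of 8 kidney tubule markers, which include Lrp2 and Umod, was between 75179 and 93890.0 on all arrays, and of these Lrp2 fell after ischemia in TLR4 null (-0.52 ± 0.10, adjusted p = 0.00144) and wild-type kidneys (-0.33 ± 0.10, adjusted p = 0.0257). The 18S control probe set (3' end) gave 1410.4 to 2645.9 in TLR4 null ischemic and 303.73 to 476.46 in TLR4 null sham kidneys, against 534.61 to 574.1 in wild-type ischemic and 373.27 to 406.43 in wild-type sham kidneys, without overlap between surgeries in either genotype. The 3' over 5' ratio of actin was 1.73 to 2.011 in TLR4 null ischemic and 1.75 to 1.852 in TLR4 null sham kidneys, against 1.88 to 1.986 in wild-type ischemic and 1.683 to 1.823 in wild-type sham kidneys, where the groups did not overlap. The part of both measures in the results was not tested.

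In both genotypes 9 of the 10 genes rose after ischemia and none fell, and the exception in both was Herpud1. The rise was steepest in Chac1, 9.30-fold in TLR4 null and 7.26-fold in wild-type kidneys, and shallow in Hspa5, Xbp1 and Atf5, which stayed under 2-fold (limma, adjusted p under 0.05 over 14316 genes). Beside these counts, 9.86% of all genes tested were higher and 11.7% lower after ischemia in TLR4 null kidneys, and 9.18% were higher and 10.5% lower in wild-type kidneys. The median log2 difference of the 10 genes was 1.72 in TLR4 null and 1.54 in wild-type kidneys, against -0.07 and -0.09 over all genes. As the 10 genes were chosen with earlier results of these data known, the comparisons with all genes are descriptions only. Split by arm, the medians were 1.89 in TLR4 null and 1.76 in wild-type kidneys for the 7 genes of the ATF4 and CHOP arm, and 0.55 and 0.86 for the 3 genes of the ER chaperone and XBP1 arm. Ischemic and sham arrays did not overlap in 9 of 10 genes in each genotype, while 13.9% of all genes were higher without overlap in TLR4 null and 15.6% in wild-type kidneys. In whole kidney, a change in the number of cells of a type and a change of RNA per cell cannot be told apart.

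**Figure D1:**
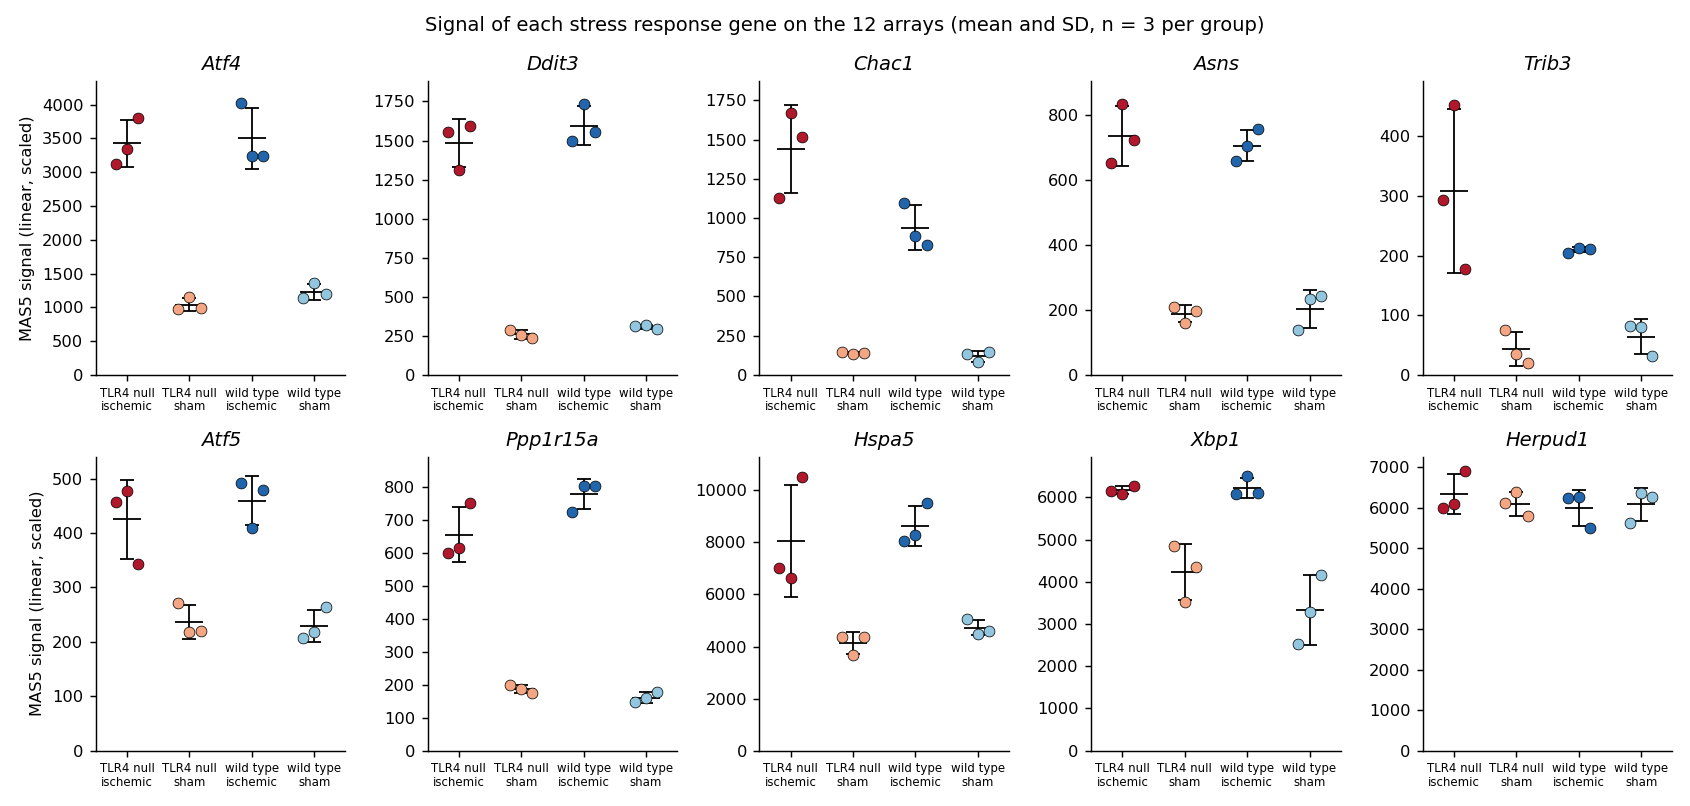
Signal of the 10 genes on each of the 12 arrays, with group mean and SD (n = 3), on a linear axis from 0. In 9 genes every ischemic array lies above every sham array of its genotype, and in Herpud1 the groups overlap.

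Atf4, the transcription factor at the head of the response, read 3128, 3351 and 3806 in TLR4 null ischemic kidneys, against 978, 1149 and 995 in TLR4 null sham kidneys. In wild type it read 4028, 3239.55 and 3239 in ischemic kidneys, against 1137, 1357 and 1192 in sham kidneys. Every ischemic array was above every sham array, and the ischemic arrays of the genotypes covered much the same range. The log2 difference was 1.70 ± 0.11 (SE, 3 arrays per group here and below) in TLR4 null kidneys (limma adjusted p = 7.64e-08) and 1.50 ± 0.11 in wild-type kidneys (adjusted p = 2.52e-07). A second Atf4 probe set (1438992_x_at) gave 1.48 ± 0.12 and 1.52 ± 0.12 in the same order of genotypes.

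Ddit3, which encodes CHOP, a transcription factor tied to cell death under lasting ER stress, read 1555, 1310.3 and 1590.0 in TLR4 null ischemic kidneys, against 288, 255 and 235 in TLR4 null sham kidneys. The wild-type kidneys read 1495, 1733 and 1555 after ischemia, against 312, 319 and 293 after sham surgery. The groups were far apart and each was tight. Ddit3 rose 5.47-fold in TLR4 null kidneys (log2 2.45 ± 0.11, adjusted p = 2.14e-09) and 4.98-fold in wild-type kidneys (2.32 ± 0.11, adjusted p = 3.07e-09). Ordered by size of rise among all 14316 genes, it stood at place 45 in TLR4 null and 53 in wild-type kidneys. A second Ddit3 probe set (1443897_at), with signals down to 8.45, rose by 1.33 ± 0.43 in TLR4 null and 1.67 ± 0.43 in wild-type kidneys.

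Chac1, a glutathione-degrading enzyme and a known target of ATF4, had the largest rise of the 10 genes. It read 1127, 1671 and 1519 in TLR4 null ischemic kidneys, against 145, 135 and 138 in TLR4 null sham kidneys. In wild type it read 1099, 885 and 827 in ischemic kidneys, against 133, 79.7 and 143 in sham kidneys. The sham levels of the genotypes overlapped, while the lowest TLR4 null ischemic array was just above the highest wild-type ischemic array, a gap present in 7.03% of all genes. The log2 difference was 3.22 ± 0.18 in TLR4 null kidneys (adjusted p = 2.60e-08) and 2.86 ± 0.18 in wild-type kidneys (adjusted p = 8.89e-08). That placed Chac1 at 14 in TLR4 null and at 30 in wild-type kidneys by size of rise among all genes tested.

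Asns, asparagine synthetase, read 651, 834 and 722 in TLR4 null ischemic kidneys, against 209, 159 and 196 in TLR4 null sham kidneys. Wild-type kidneys read 657, 702 and 755 after ischemia, against 137, 232 and 241 after sham surgery. The ranges of the genotypes overlapped after both surgeries, and 1 wild-type sham array lay well below the other two. Asns rose by 1.89 ± 0.18 (adjusted p = 2.75e-06) in TLR4 null and by 1.76 ± 0.18 (adjusted p = 5.30e-06) in wild-type kidneys, and its second probe set (1433966_x_at) by 2.43 ± 0.23 and 2.15 ± 0.23.

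Trib3, a pseudokinase induced by ATF4 and CHOP, had the largest standard error of the 10 genes. It read 293, 452 and 178 in TLR4 null ischemic kidneys, against 75.9, 35.4 and 20.2 in TLR4 null sham kidneys. The wild-type kidneys read 205, 213 and 211 after ischemia, against 82.0, 79.5 and 31.1 after sham surgery. The wild-type ischemic arrays were nearly equal, and the TLR4 null ischemic arrays lay on both sides of them. The rise was 2.48 ± 0.36 in TLR4 null kidneys (adjusted p = 0.000191) and 1.58 ± 0.36 in wild-type kidneys (adjusted p = 0.00615). The other Trib3 probe set (1456225_x_at) gave 2.88 ± 0.34 and 2.37 ± 0.34. On it the TLR4 null ischemic arrays (294 to 359.5) lay above the wild-type ischemic arrays (191 to 253) without overlap, and that difference did not pass (0.57 ± 0.34, adjusted p = 0.616). Such a gap was present in 7.03% of all genes on their main probe sets.

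Atf5, a transcription factor whose translation, like that of ATF4, is favored when eIF2 is phosphorylated, moved less. It read 456, 477 and 342 in TLR4 null ischemic kidneys, against 272, 217 and 219.8 in TLR4 null sham kidneys, and 492, 409 and 479 in wild-type ischemic kidneys, against 208, 218 and 263 in wild-type sham kidneys. The gap between ischemic and sham arrays was narrow but present in both genotypes. The log2 difference was 0.80 ± 0.15 in TLR4 null kidneys (adjusted p = 0.00109) and 0.96 ± 0.15 in wild-type kidneys (adjusted p = 0.000258).

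Ppp1r15a encodes GADD34, the subunit that brings protein phosphatase 1 to eIF2 and so ends the translational block. It read 601, 614 and 751 in TLR4 null ischemic kidneys, against 198, 186 and 175 in TLR4 null sham kidneys. In wild type it read 726, 805 and 805 in ischemic kidneys, against 146, 159 and 178 in sham kidneys. The wild-type arrays reached slightly higher after ischemia and slightly lower after sham surgery than the TLR4 null arrays. The rise was 1.73 ± 0.12 in TLR4 null kidneys (adjusted p = 1.20e-07) and 2.18 ± 0.12 in wild-type kidneys (adjusted p = 1.27e-08).

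In the other arm, Hspa5, the ER chaperone BiP, read 7004, 6621 and 10516 in TLR4 null ischemic kidneys, against 4363, 3667 and 4383 in TLR4 null sham kidneys. Wild-type kidneys read 8059, 8303 and 9504 after ischemia, against 5059.95, 4498 and 4613 after sham surgery. TLR4 null ischemic array 3 stood above the other arrays of its group. Hspa5 rose 1.91-fold in TLR4 null (0.93 ± 0.14, adjusted p = 0.000232) and 1.82-fold in wild-type kidneys (0.86 ± 0.14, adjusted p = 0.000452). Without TLR4 null ischemic array 3 the rise in TLR4 null kidneys was 0.72 ± 0.10. Of its other probe sets, 1427464_s_at rose by 0.68 ± 0.14 in TLR4 null and 0.92 ± 0.14 in wild-type kidneys, and 1447824_x_at did not pass in either genotype (0.23 ± 0.16 and 0.01 ± 0.16).

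Xbp1, the transcription factor activated by IRE1, read 6158, 6093 and 6272 in TLR4 null ischemic kidneys, against 4843, 3530.2 and 4343 in TLR4 null sham kidneys. In wild type it read 6081, 6498 and 6105 in ischemic kidneys, against 2531, 3288 and 4172 in sham kidneys. The ischemic arrays were close to one another in both genotypes, while the sham arrays were spread. The difference was 0.55 ± 0.14 in TLR4 null kidneys (adjusted p = 0.0117) and 0.93 ± 0.14 in wild-type kidneys (adjusted p = 0.000281). The call in TLR4 null kidneys was lost without TLR4 null sham array 2, the lowest of its group (0.43 ± 0.15, adjusted p = 0.0647, with adjusted p from 0.00282 to 0.0647 over the 26 alternative settings).

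The other 3 Xbp1 probe sets gave different values. The probe set 1437223_s_at rose by 0.41 ± 0.12 in TLR4 null (adjusted p = 0.0339 over 30304 probe sets) and by 0.60 ± 0.12 in wild-type kidneys (adjusted p = 0.0036), and 1420011_s_at passed in wild type (0.67 ± 0.13, adjusted p = 0.00271) and not in TLR4 null kidneys (0.20 ± 0.13, adjusted p = 0.362). The probe set 1420012_at read 761, 885 and 578 in TLR4 null ischemic kidneys, against 525, 390.2 and 583 in TLR4 null sham kidneys, and 460, 522 and 468 in wild-type ischemic kidneys, against 531, 638 and 680 in wild-type sham kidneys. It was higher by 0.55 ± 0.16 in TLR4 null kidneys (adjusted p = 0.0283) and differed by -0.34 ± 0.16 in wild-type kidneys (adjusted p = 0.192). Which part of the Xbp1 transcript each probe set reads was not determined here.

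Herpud1, an ER membrane protein of ER-associated degradation, read 5992, 6101 and 6908 in TLR4 null ischemic kidneys, against 6125, 6379.7 and 5788 in TLR4 null sham kidneys. Wild-type kidneys read 6242, 6257 and 5491 after ischemia, against 5619, 6373 and 6272 after sham surgery. The 4 groups overlapped throughout. The log2 difference was 0.05 ± 0.09 in TLR4 null kidneys (95% interval -0.13 to 0.23, adjusted p = 0.725) and -0.02 ± 0.09 in wild-type kidneys (-0.20 to 0.16, adjusted p = 0.891), and the second probe set (1435626_a_at) gave -0.04 ± 0.08 and -0.06 ± 0.08. The promoter window of Herpud1, shown above, is the one among the 10 genes that holds elements of both arms.

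**Figure D2:**
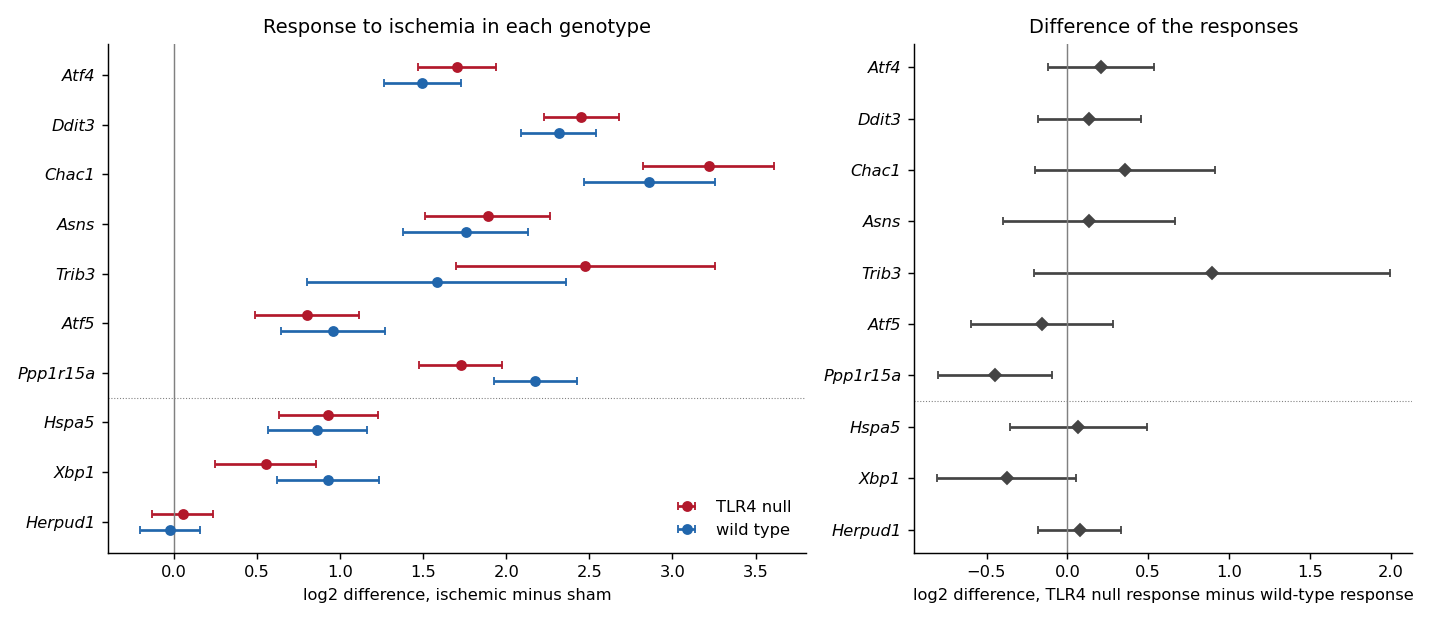
Left, log2 difference between ischemic and sham kidneys with its 95% interval in TLR4 null and wild-type mice. Right, the TLR4 null response minus the wild-type response, where the intervals include 0 in every gene except Ppp1r15a.

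Over single probe sets, 16 of 20 were higher after ischemia and 0 lower in each genotype, where 8.5% of all 30304 probe sets tested were higher in TLR4 null and 7.71% in wild-type kidneys. All 11 tested probe sets of the ATF4 and CHOP arm passed in both genotypes. The probe sets that did not pass in TLR4 null kidneys were 1420011_s_at of Xbp1, 1447824_x_at of Hspa5 and both of Herpud1, and in wild-type kidneys 1420012_at took the place of 1420011_s_at.

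**Figure D3:**
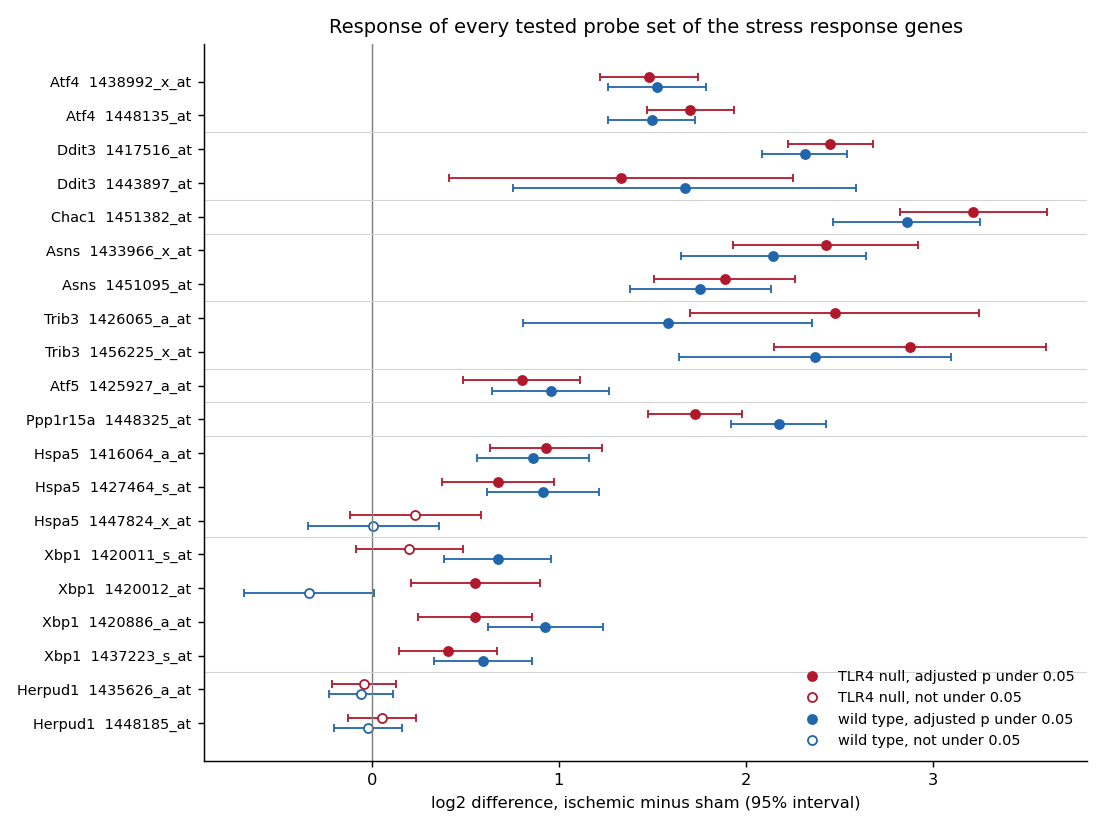
Log2 difference between ischemic and sham kidneys, with 95% interval, for the 20 probe sets tested. Filled points passed an adjusted p of 0.05, and for Xbp1 1420012_at the TLR4 null point lies right of 0 and the wild-type point left of it.

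Array by array, the response of the ATF4 and CHOP arm was even. Averaged over its 7 genes, each TLR4 null ischemic array lay above the TLR4 null sham mean by 1.96, 2.17 and 1.98 log2 units, and each wild-type ischemic array above the wild-type sham mean by 1.91, 1.86 and 1.87. For the 3 genes of the ER chaperone and XBP1 arm the values were 0.43, 0.41 and 0.70 in TLR4 null and 0.57, 0.62 and 0.59 in wild-type kidneys. TLR4 null ischemic array 3 was the highest of its group for 6 genes, among them Hspa5, Ppp1r15a and Atf4, and the lowest for Trib3 and Atf5. Array 2 of that group was the highest for Chac1, Asns, Trib3 and Atf5, so no array was highest for all genes.

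**Figure D4:**
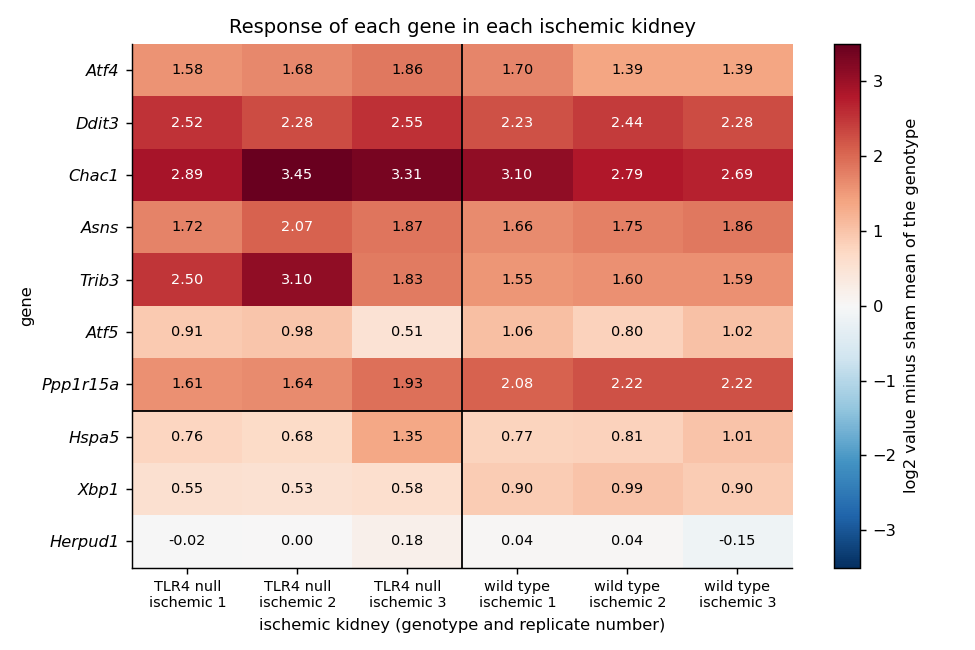
Log2 value of each gene on each ischemic array minus the sham mean of the same genotype, with the value printed in each cell. Chac1 has the highest value on every array and Herpud1 the lowest, from -0.15 to 0.18.

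The responses of the genotypes were then compared directly. None of the 10 genes passed the test of a difference between the genotypes' responses (limma interaction, 0 of 14316 genes at an adjusted p under 0.05, or 0%). At an unadjusted p under 0.05, 1 of the 10 genes and 6.36% of all genes passed. That gene was Ppp1r15a, with a TLR4 null response minus wild-type response of -0.45 ± 0.17 (log2, unadjusted p = 0.0163, adjusted p = 0.687). Trib3 had the widest interval, -0.21 to 1.99 around 0.89 ± 0.52. For Chac1 the difference was 0.36 ± 0.26 (-0.20 to 0.91), for Xbp1 -0.38 ± 0.20 (-0.81 to 0.06), for Ddit3 0.14 ± 0.15 (-0.18 to 0.46) and for Hspa5 0.07 ± 0.20 (-0.36 to 0.49). Without TLR4 null ischemic array 3 the Hspa5 difference was -0.14 ± 0.14, and over all genes 10 interactions passed as higher and 5 as lower, none of them in the 10 genes.

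Within a surgery, the genotypes likewise did not differ past the test in any of the 10 genes. Among sham kidneys 0 of 10 passed, where 0.314% of all genes did, and at an unadjusted p under 0.05 the 3 genes Atf4, Ddit3 and Xbp1 passed, where 9.34% of all genes did. TLR4 null sham kidneys read lower than wild-type sham kidneys without overlap in Ddit3 (log2 -0.24 ± 0.11, adjusted p = 0.487) and Hspa5 (-0.19 ± 0.14, adjusted p = 0.761), as 8.62% of all genes did. The genotypes overlapped on the other tested probe sets of both genes. These gave 0.25 ± 0.43 for Ddit3 (1443897_at), and for Hspa5 0.02 ± 0.14 (1427464_s_at) and -0.16 ± 0.16 (1447824_x_at). For Atf4 the main probe set gave -0.24 ± 0.11 and 1438992_x_at gave -0.0003 ± 0.12. In Xbp1 the difference was 0.36 ± 0.14 with overlapping arrays (adjusted p = 0.404). Among ischemic kidneys 0 of 10 passed, where 0.657% of all genes did, and at an unadjusted p under 0.05 Chac1 alone passed, where 11.4% of all genes did. Chac1 was 1.52-fold higher in TLR4 null ischemic kidneys without overlap (0.60 ± 0.18, adjusted p = 0.189, and 0.0881 to 0.482 over the 26 alternative settings), as 7.03% of all genes were.

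Further genes of the pathway were taken from lists, which were also chosen with earlier results of these data known. Of 29 tested ATF4 targets outside the 10 genes, 15 rose and 2 fell in TLR4 null kidneys and 14 rose and 2 fell in wild-type kidneys, and 13 rose in both. That is 51.7% and 48.3% higher, beside 9.86% and 9.18% of all genes, of which 11.7% and 10.5% were lower. The medians of the list were 0.54 and 0.48 on the log2 scale. In wild type the count was 9 higher and 1 lower without wild-type sham array 1. Atf3, a stress-induced transcription factor, had the largest rise, 4.45 ± 0.33 in TLR4 null and 5.12 ± 0.33 in wild-type kidneys. It read 2035, 976 and 3740.4 in TLR4 null ischemic kidneys, against 94.6, 67.4 and 66.0 in TLR4 null sham kidneys. Eif4ebp1, an inhibitor of cap-dependent translation, rose by 2.21 ± 0.18 in TLR4 null and 1.48 ± 0.18 in wild-type kidneys.

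Among further genes of that list, the amino acid transporter Slc7a5 rose by 2.03 ± 0.45 in TLR4 null kidneys and did not pass in wild type (1.12 ± 0.45, adjusted p = 0.0994), and its interaction did not pass (0.91 ± 0.64, adjusted p = 0.861). The transporter Slc1a4 rose by 1.14 ± 0.36 in TLR4 null and 1.89 ± 0.36 in wild-type kidneys, and the amino acid transporter Slc38a2 rose in both (1.38 ± 0.10 and 1.39 ± 0.10). The called falls of the list were in Psat1, Shmt2 and Cth. Psat1, an enzyme of serine synthesis, fell in both genotypes, with log2 differences of -0.53 ± 0.18 in TLR4 null (adjusted p = 0.0489) and -0.94 ± 0.18 in wild-type kidneys (adjusted p = 0.00187). Shmt2, the mitochondrial serine hydroxymethyltransferase, fell in TLR4 null kidneys (-0.39 ± 0.10) and did not pass in wild type (-0.10 ± 0.10). Cth, cystathionine gamma-lyase, fell in wild-type kidneys (-0.32 ± 0.10) and did not pass in TLR4 null kidneys (-0.07 ± 0.10). Pycr1 and Gdf15 were not analysed here.

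Of 19 tested genes of eIF2, its kinases, phosphatases and exchange factor, 4 rose (21.1%) and 2 fell, the same genes in both genotypes. Of all genes, 9.86% rose and 11.7% fell in TLR4 null kidneys, and 9.18% rose and 10.5% fell in wild-type kidneys. The medians of the list were 0.11 in TLR4 null and -0.01 in wild-type kidneys. Eif2ak3, which encodes PERK, rose by 0.77 ± 0.11 in TLR4 null and 0.76 ± 0.11 in wild-type kidneys. The eIF2 subunit Eif2s2 rose by 0.63 ± 0.11 and 0.72 ± 0.11, Ppp1r15b, the constitutive counterpart of GADD34 in eIF2 dephosphorylation, by 0.59 ± 0.10 and 0.50 ± 0.10, and Impact, an inhibitor of the kinase GCN2, by 0.47 ± 0.12 and 0.71 ± 0.12. Dnajc3, a co-chaperone of BiP that also inhibits PERK, fell (-0.49 ± 0.09 and -0.53 ± 0.09), as did the phosphatase subunit Ppp1cc (-0.32 ± 0.07 and -0.24 ± 0.07).

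Of 11 tested ER stress sensors and their processing factors, 2 rose and 1 fell in TLR4 null kidneys (18.2% higher, beside 9.86% of all genes) and 1 rose in wild-type kidneys (9.09%, beside 9.18%), with medians of -0.03 and -0.05. Creb3l1, a membrane-bound transcription factor related to ATF6, rose by 1.36 ± 0.36 in TLR4 null and 1.15 ± 0.36 in wild-type kidneys. Creb3 rose in TLR4 null kidneys (0.37 ± 0.10) and did not pass in wild type (0.27 ± 0.10, limma adjusted p = 0.0759). Creb3l2 fell in TLR4 null kidneys (-0.52 ± 0.12) and did not pass in wild type (-0.34 ± 0.12, limma adjusted p = 0.0687). The interaction passed for neither (limma adjusted p = 0.941 for Creb3 and 0.908 for Creb3l2). Creb3l1 was dim, with 12.3 to 80.3 over all sham kidneys. No sensor was called in wild type without wild-type ischemic array 1 or without wild-type sham array 1 or 3. Without wild-type ischemic array 2 there was 1 lower and 0 higher in wild type, and 2 were called (1 higher and 1 lower) without TLR4 null ischemic array 2. In TLR4 null kidneys the only call without TLR4 null sham array 1 was a fall.

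Of 23 tested ER chaperones and folding enzymes other than Hspa5, 1 rose in each genotype, which is 4.35% (beside 9.86% of all genes in TLR4 null and 9.18% in wild-type kidneys), and the medians were -0.06 in both. The gene that rose was Dnajb9, a BiP co-chaperone, by 0.81 ± 0.08 in TLR4 null and 0.99 ± 0.08 in wild-type kidneys. Dnajb9 read 5079, 4990.01 and 5355 in TLR4 null ischemic kidneys, against 3195, 2858 and 2725 in TLR4 null sham kidneys. Sil1, a nucleotide exchange factor of BiP, fell in TLR4 null kidneys (-0.42 ± 0.11) and did not pass in wild type (-0.27 ± 0.11). Hsp90b1, the ER form of HSP90, gave -0.13 in TLR4 null and 0.13 in wild-type kidneys, and Calr, calreticulin, -0.04 and -0.07, none of them past the test. The wild-type count was 2 higher without wild-type ischemic array 3 or TLR4 null ischemic array 3, and 2 higher and 1 lower without TLR4 null ischemic array 2, and the TLR4 null count was 1 higher and 0 lower without TLR4 null sham array 3.

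Of 30 tested genes of ER-associated degradation and translocation, 5 rose and 1 fell in TLR4 null kidneys (16.7% higher, beside 9.86% of all genes) and 2 rose and 1 fell in wild-type kidneys (6.67%, beside 9.18%), with medians of 0.04 and -0.06. Ube2g2, a ubiquitin-conjugating enzyme of this pathway, rose by 0.93 ± 0.15 in TLR4 null and 1.21 ± 0.15 in wild-type kidneys, and Sec62, a subunit of the protein translocation machinery, fell (-0.32 ± 0.07 and -0.31 ± 0.07). Sec24d, a coat subunit of vesicles that leave the ER, and Sec63, a translocation factor, rose in TLR4 null kidneys (0.42 ± 0.12 and 0.41 ± 0.10). In wild type Sec24d and Sec63 did not pass (0.15 ± 0.12 and 0.22 ± 0.10). Nploc4, a cofactor of the extraction ATPase VCP, rose in wild-type kidneys (0.47 ± 0.14) and did not pass in TLR4 null kidneys (0.30 ± 0.14). No gene of these 5 lists passed the interaction test or differed between genotypes within a surgery.

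**Figure D5:**
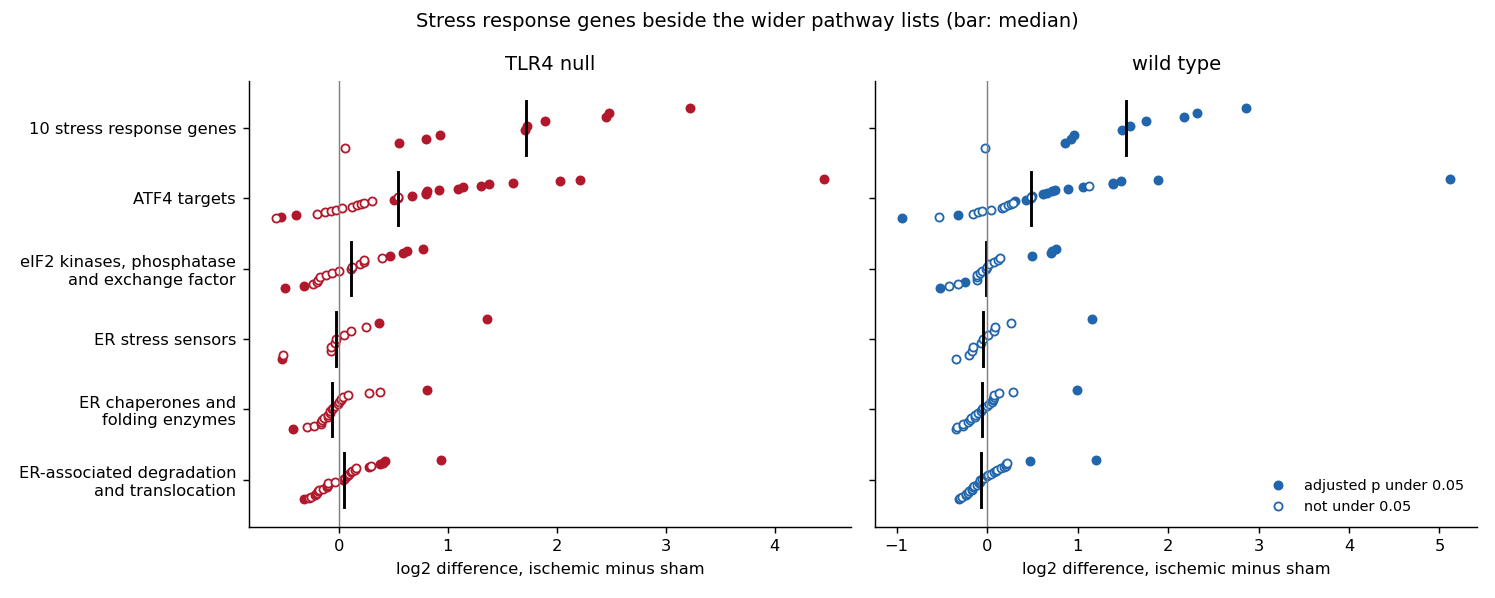
Log2 difference between ischemic and sham kidneys for each gene of the 10 and of the 5 lists, TLR4 null left and wild type right, with filled points past an adjusted p of 0.05 and bars at the median. The medians of the ER lists lie near 0, those of the ATF4 targets at 0.54 and 0.48, and those of the 10 genes at 1.72 and 1.54.

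Genes whose log2 values ran closest to Ddit3 over the 12 arrays, by root mean square difference after centring, were Rcan1, a regulator of calcineurin (0.22), F3, which encodes tissue factor (0.221), and Adamts1, a secreted protease (0.225). Rcan1 rose by 2.45 ± 0.12 in TLR4 null and 2.21 ± 0.12 in wild-type kidneys. Closest to Hspa5 were Zswim6 (0.133), Edrf1 (0.133) and Mlf1 (0.135). These are descriptions over arrays that share the same contrast.

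Summed signals of markers of other cells were as follows, and their part in the results was not tested. The summed signal of 6 neutrophil markers was 613.53 to 916.38 in TLR4 null ischemic and 363.08 to 567.49 in TLR4 null sham kidneys, against 1033 to 1536.2 in wild-type ischemic and 569.34 to 717 in wild-type sham kidneys, with S100a8 and S100a9 called and the other 4 not. That of 6 plasma and B cell markers, cells rich in Xbp1, was 613.76 to 776.13 and 574.82 to 791.97 in TLR4 null kidneys, against 867.81 to 1162.9 and 597.77 to 801.94 in wild-type kidneys, ischemic before sham, and the 1 call in each genotype was a rise of Sdc1, which epithelia also make. The sums for 7 monocyte and macrophage markers were 1862.2 to 2091.4 and 2044.6 to 2187.5 in TLR4 null kidneys, against 2123.8 to 2299.7 and 2451.7 to 2639.3 in wild-type kidneys, with Cd68 called higher in both genotypes (1.02 ± 0.19 in TLR4 null and 0.94 ± 0.19 in wild type), C1qa lower in TLR4 null (-0.66 ± 0.13) and Csf1r lower in wild-type kidneys (-0.35 ± 0.09). In the other genotype C1qa (-0.22 ± 0.13 in wild type) and Csf1r (-0.13 ± 0.09 in TLR4 null kidneys) did not pass. C1qa was also called lower in TLR4 null than in wild-type ischemic kidneys (-0.64 ± 0.13, adjusted p = 0.0342). The sums of 4 adipocyte markers were 2377.2 to 9022.6 in TLR4 null ischemic and 2897.7 to 5536.6 in TLR4 null sham kidneys. In wild type they were 4350.9 to 12754 in ischemic and 5276.1 to 8989.2 in sham kidneys. All 4 markers were lower in TLR4 null than in wild-type kidneys, with 0 called. The median log2 difference was -0.88 in sham (-1.22 to -0.35) and -1.13 in ischemic kidneys (-1.83 to -1.05).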

How the data were processed

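Whole-kidney RNA of 12 mice was read on 12 arrays. Per the submitters' processing notes, the authors made the deposited signal intensity values with MAS5, whose version is not given in the sources used here. The deposited values are linear, and every array has the same trimmed mean, which was kept. Groups came from the labels, which give no batch. The 10 genes and all lists were chosen with earlier results of these data known.

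Here values were taken as log2(intensity + 15). Probe sets over the 40th percentile of the array on 3 or more of the 12 arrays were kept, and each gene was represented by its probe set with the highest mean. Of 45101 probe sets, 34958 had 1 gene name in the platform annotation, 932 several and 9160 none (a number that leaves out control probe sets), and 34754 matched the Entrez gene table. The test was limma's moderated one (version 3.58.1, under R 4.3.3, lmFit and eBayes with trend) in 1 model of 4 group means with 8 residual degrees of freedom, two-sided, with Benjamini-Hochberg adjustment over 14316 genes and calls at an adjusted p under 0.05. Single probe sets were tested in a second model of 30304 probe sets. Folds are on the log2(intensity + 15) scale, which understates changes of dim genes, and 3 arrays per group limit the precision. Levels were compared within a probe set only.

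Named were all 10 genes, per list and genotype the 3 called genes with the largest rise and the 2 with the largest fall, and for Ddit3 and Hspa5 the 3 genes closest over the arrays. Slc38a2 and further transporters of its list, Hsp90b1, Calr, the marker genes and genes named in both genotypes though called in one were given outside this rule, after their values were seen. RefSeq promoter windows (GRCm38.p6) were searched for exact motif matches. Tables and figures used Python 3.11.15, numpy 2.4.6, pandas 2.3.3 and matplotlib 3.10.9. Alternatives were other scalings, pseudocounts of 1 and 60, filters, probe set choices, limma settings, a replicate block, a fat score and leaving out each array. Some list genes without a probe set of their own are not analysed here.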

Additional observations from a re-analysis of the deposited data

Results flagged for a closer look

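The Xbp1 probe set 1420012_at had log2 differences of opposite sign in the genotypes. It was higher after ischemia in TLR4 null kidneys (log2 0.55 ± 0.16) and lower in wild-type kidneys (-0.34 ± 0.16, not called), and the difference of the responses was 0.89 ± 0.23 (limma, unadjusted p = 0.00148, adjusted p = 0.465 over 30304 probe sets, 3 arrays per group). The difference thus passed before and not after adjustment, and before adjustment 6.36% of all genes passed in the model of genes. The main Xbp1 probe set gave -0.38 ± 0.20 for the same difference, and 1437223_s_at gave -0.19 ± 0.17. The probe set 1420011_s_at gave -0.47 ± 0.19 (limma, unadjusted p = 0.0246, adjusted p = 0.725), so it also passed before adjustment, in the opposite direction. The cause was not tested.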

How the results depend on the processing

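Across 26 alternative settings, 9 of the 10 genes were called higher in both ischemia comparisons, except that 8 were in TLR4 null kidneys without TLR4 null sham array 2, where Xbp1 was lost. No called value of the 10 genes changed sign. Values called in no setting changed sign 1 time in the TLR4 null and 4 times in the wild-type ischemia comparison, 6 times in the interaction, 13 times between sham and 8 times between ischemic kidneys of the genotypes. The 10 genes gave 0 calls in the interaction and in the genotype comparisons under every setting run. The replicate numbers showed no sign of pairing the arrays (18 same-numbered pairs, r from -0.0622 to 0.104). Differently numbered pairs ranged from -0.129 to 0.143. With 3 arrays per group this check cannot exclude pairing. With a replicate block 9 and 9 of the 10 genes passed. That model called 1368 higher and 1552 lower genes in TLR4 null kidneys, and 1291 and 1432 in wild-type kidneys. It gave 0 interactions, 33 calls between sham and 61 between ischemic kidneys.

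Over all genes, calls in TLR4 null kidneys were 3088 (1412 higher, 1676 lower), 2014 with median scaling (1094 higher, 920 lower) and 5072 over all probe sets. In wild type they were 2815 (1314 higher, 1501 lower), 1786 with median scaling (1239 higher, 547 lower) and 4735 over all probe sets. Between genotypes, 45 genes were called in sham kidneys, and 22 with median scaling, 4 without the eBayes trend, 159 with array weights and 82 with only the arrays compared. In ischemic kidneys 94 were called, and 47 without a filter, 20 without the trend, 164 with array weights, 17 with only the arrays compared and 14 with the fat score as covariate.

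Calls among ER chaperones were 2 in TLR4 null kidneys, and 1 with median scaling and 4 with array weights. In wild type the 1 call became 2 with a filter at the 60th percentile or array weights and 3 with only the arrays compared. ER-associated degradation calls were 6 in TLR4 null kidneys, and 2 with median scaling, and 3 in wild type, and 5 with the mean of probe sets. The 1 sensor call in wild type became 0 with a pseudocount of 1, without a filter or without the trend, 2 without the probe sets ending in _x_at and _s_at, and 3 with the mean of probe sets or array weights.

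Leaving out one array at a time, calls ranged from 2391 to 3058 in TLR4 null and 2062 to 3090 in wild-type kidneys, 0 to 15 for the interaction, 2 to 61 between sham and 10 to 245 between ischemic kidneys of the genotypes. These counts moved by over 1.5 times without wild-type sham array 1 or 2 or any TLR4 null sham array, and without any of the 6 ischemic arrays. The most were called between ischemic kidneys without TLR4 null ischemic array 3 and the fewest without wild-type ischemic array 3. In TLR4 null and wild-type kidneys in turn, ATF4 targets ranged from 13 to 17 and 10 to 16, the eIF2 list from 5 to 6 in both, sensors from 1 to 3 and 0 to 2, chaperones from 1 to 3 in both, and ER-associated degradation from 4 to 6 and 2 to 4. The cause of these changes was not tested.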

Other observations

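Outside the 10 genes, tested genes whose RefSeq windows hold the composite element of ATF4 and C/EBP factors (342 genes) were higher after ischemia in 12.9% in TLR4 null and 11.4% in wild-type kidneys, beside 9.86% and 9.18% of all genes. Of these 342 genes, 26 were lower in TLR4 null and 25 in wild-type kidneys, and their medians were -0.05 and -0.04. The 16 genes with the ER stress element and the 7 with the ER stress element II each had 0 higher and 2 lower in each genotype (limma). Of all genes, 11.7% were lower in TLR4 null and 10.5% in wild-type kidneys. This look was added after the data were seen and is a description, with no test.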
